A study of Oryza sativa with 14 samples.

Results

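Transcript levels of 4 rice genes for the uptake of nitrate and ammonium were followed in seedlings of modified and unmodified lines. The genes were NRT2.2 (LOC4328052), NRT2.3 (LOC4324249), NAR2.2 (LOC4336175) and AMT1-2 (LOC4330008). They were matched by name, through the symbols and synonyms of the array and gene tables, and each had 1 probe set on the array, out of 17905 genes with a probe set in the tables, 2469 of which have a name. The choice of these genes was made with earlier results of these data known. The shares of all probe sets and genes given below are therefore descriptions and no test of the set. The name AMT1-2 is a synonym of 2 neighbouring genes in the gene table. Only the one also listed as OsAMT1;2 had a probe set here, so that gene was used.

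Plant roots take up nitrate at low supply through transporters of the NRT2 family. Many, but not all, of these need a small partner protein of the NAR2 family to work at the plasma membrane. Ammonium enters through transporters of the AMT1 family. Many of these genes are transcribed mainly in roots, and their transcripts change with the nitrogen status of the plant and with the form of nitrogen supplied. Ammonium is the main nitrogen form for rice in flooded soil, while nitrate forms in the aerated zone around its roots.

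The study set gamma-ray mutants beside transgenic lines to compare how far their transcripts depart from unmodified plants, in 7 groups of Oryza sativa ssp. japonica with 2 arrays each. Each array held 1 pool of 6 whole seedlings, 12 days old, grown at 28 °C for 2 days in the dark and 10 days with 12 h of light in Yoshida's medium. The unmodified controls were the cultivars Nipponbare, Bengal and Estrela A. The unstable transgenic line was the T1 generation of an Agrobacterium-transformed Nipponbare line with 1 copy of BCBF1 under the Arabidopsis AtRD29A promoter and 1 copy of hpt II. The unstable mutant was the M1 generation of Nipponbare after 100 Gy of gamma rays, picked among the irradiated lines because it looked most like the control. The stable transgenic line was the T3 generation of a Bengal line that expresses the single-chain antibody ScFvT84.66 against carcinoembryonic antigen. The stable mutant came from gamma-irradiated Estrela A selfed for over 10 generations, and its mature plants stood about 45 cm below the wild type. Both transgenic lines germinated with 30 mg/L of hygromycin B and the other groups without it, so antibiotic and transgene cannot be told apart. Each line stands for 1 modification event or 1 irradiated line, and the p-values below measure the spread between pools of seedlings, not between lines made independently.

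Levels are the authors' log2 values from Robust Multichip Average (RMA), where 1 unit is a doubling. The median of all values was 5.86, and array medians lay between 5.83 and 5.89 over the whole table. Replicate arrays correlated with r between 0.993 and 0.997 across probe sets, which are not independent replicates. The unstable mutant arrays stood apart from the other Nipponbare arrays. They correlated with the Nipponbare control at r of 0.971 to 0.978 and with the Bengal control, another cultivar, at 0.972 to 0.974. Of 169 probe sets at least 3 log2 units higher in the Nipponbare control than in both other controls, the unstable mutant lay nearer to Nipponbare in 115 and the unstable transgenic line in 165. Of 54 probe sets at least 3 units lower in the Nipponbare control, the unstable mutant lay nearer to Nipponbare in 19 and the unstable transgenic line in 49. NRT2.2 and NRT2.3 were in the set that is higher in Nipponbare, and in both the unstable mutant lay nearer to the other controls. With gaps of at least 2 and 4 units, the mutant lay nearer to Nipponbare in 219 of 360 and 71 of 86 higher probe sets. Among lower probe sets it did so in 44 of 145 and 10 of 25. NRT2.2 was also in the higher set at 4 units. Detection calls were not analysed here, so levels near or below the median carry an unknown share of background, and folds against them depend on it.

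The Nipponbare control and the unstable transgenic line had high levels of all 4 genes, and the other 5 groups had low ones, the unstable mutant among them. The moderated F-test of limma over the 7 groups passed for each, with adjusted p-values of 2.86e-07 for NRT2.2, 1.5e-10 for NRT2.3, 3.94e-05 for NAR2.2 and 0.000138 for AMT1-2. The same test passed for 41.2% of all probe sets. Its share over genes read on their brightest probe set was not counted, and in the comparisons below that share is the larger of the 2. Every gene reached a group mean above the median of all values in at least 1 group, so all 4 remained under the filter on dim probe sets.

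**Figure D1:**
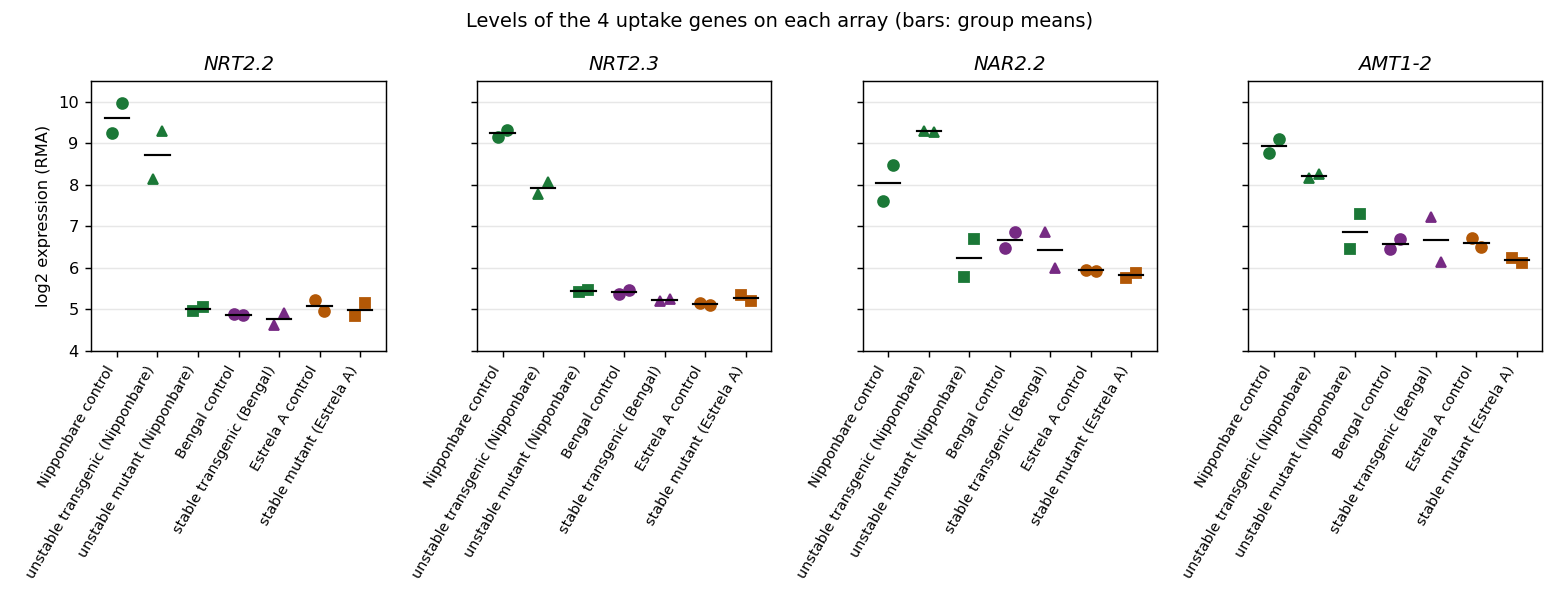
Log2 expression (y axis, RMA, not starting at 0) of NRT2.2, NRT2.3, NAR2.2 and AMT1-2 on each of the 14 arrays, by group (x axis); points are arrays, with circles for controls, triangles for transgenic lines and squares for mutants, colours are cultivars, and bars are group means. The Nipponbare control and the unstable transgenic line stand above all 10 other arrays in each panel, and NAR2.2 is the gene that is highest in the unstable transgenic line.

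NRT2.2, a high-affinity nitrate transporter gene, read 9.25 and 9.97 on the 2 Nipponbare control arrays and 8.14 and 9.29 on those of the unstable transgenic line. On the 10 arrays of the other 5 groups it lay between 4.63 and 5.22, below the median of all values. The unstable mutant arrays, at 4.96 and 5.06, were inside that low range. The 2 high groups overlapped with each other, and neither overlapped with any low group. Among the low groups the means ran from 4.77 ± 0.19 (SD, n = 2) in the stable transgenic line to 5.09 ± 0.19 in the Estrela A control, and no pair of them passed in limma (lowest adjusted p = 0.677). The neighbouring gene NRT2.1 is a close copy of NRT2.2 in rice and has no probe set of its own in the tables used. The suffix of the NRT2.2 probe set marks probes shared with other transcripts, so its signal may hold transcripts of both genes.

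NRT2.3, the second nitrate transporter gene, read 9.16 and 9.32 in the Nipponbare control and 7.77 and 8.06 in the unstable transgenic line. Its values on the other 10 arrays lay between 5.09 and 5.47, with 5.41 and 5.47 in the unstable mutant. The groups formed 3 separate levels, and the 3 did not overlap. It had the smallest standard error of the 4 genes, with group SDs between 0.028 and 0.205. Neighbours among the 5 low groups did not pass, and the lowest adjusted p among all pairs of them was 0.107, for the unstable mutant against the Estrela A control. Its probe set has the same suffix, for probes shared with other transcripts.

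NAR2.2, which encodes a member of the partner protein family, had another order. It read 9.29 and 9.28 in the unstable transgenic line, above the 7.6 and 8.48 of the Nipponbare control. The unstable mutant arrays read 5.78 and 6.7, and the other 8 arrays lay between 5.75 and 6.85. The unstable transgenic line, the Nipponbare control and the remaining groups thus formed 3 levels without overlap. Among the 5 low groups the mean was highest in the Bengal control, 6.66 ± 0.27, and lowest in the stable mutant, 5.82 ± 0.09 (adjusted p = 0.154, not passed). NAR2.1, the other gene of the family in rice, has no probe set in the tables used.

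AMT1-2, an ammonium transporter gene expressed in roots, read 8.76 and 9.11 in the Nipponbare control and 8.16 and 8.27 in the unstable transgenic line. The unstable mutant arrays stood at 6.44 and 7.3. On the other 8 arrays AMT1-2 lay between 6.12 and 7.21. The 2 high groups did not overlap with each other or with any low group, and the low groups overlapped in part, with the unstable mutant the highest of them in mean (6.87 ± 0.61) and the stable mutant the lowest (6.18 ± 0.08, adjusted p = 0.245). All low groups of AMT1-2 had means above the median of all values.

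Pools of one group differed from each other in part alike across the genes. Nipponbare control replicate 2 was above replicate 1 for all 4 genes. In the stable transgenic line replicate 1 was higher for NAR2.2 (6.85 against 5.99) and AMT1-2 (7.21 against 6.13), and replicate 2 was slightly higher for NRT2.2 and NRT2.3. In the unstable mutant replicate 2 was higher for all 4. Over the 14 arrays, Pearson's r was 0.985 between NRT2.2 and NRT2.3, 0.943 between NRT2.3 and AMT1-2, 0.928 between NRT2.2 and AMT1-2, and 0.826 to 0.862 between NAR2.2 and the 3 other genes. These arrays fall into a high and a low cluster, so the correlations describe mostly the step between the clusters. The probe sets of NRT2.2 and NRT2.3 both carry the suffix for shared probes, and whether shared signal adds to their r was not tested.

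In the unstable mutant all 4 genes were lower than in the Nipponbare control, against 10.2% of all probe sets called lower and 22.9% called in either direction. Over genes, each read on its brightest probe set as the 4 were, 18.9% were called lower and 38% in either direction. NRT2.2 fell 24.3-fold, from a mean of 9.61 ± 0.51 to 5.01 ± 0.07 (log2 difference -4.60, SE 0.31, adjusted p = 2.17e-06 in limma). The 95% interval of that fold ran from 15.1 to 38.9, and 0.0507% of probe sets fell by as much or more. NRT2.3 fell 13.9-fold, from 9.24 ± 0.11 to 5.44 ± 0.04 (SE 0.11, adjusted p = 3.53e-09). AMT1-2 fell 4.18-fold, from 8.94 ± 0.25 to 6.87 ± 0.61 (SE 0.32, adjusted p = 0.000629). NAR2.2 fell 3.48-fold, from 8.04 ± 0.62 to 6.24 ± 0.65 (SE 0.34, adjusted p = 0.00244). Both arrays of the mutant lay below both control arrays for every gene. All 4 kept the call whichever single array was left out, where the log2 difference of NRT2.2 ran from -4.96 to -4.24 and that of NAR2.2 from -2.26 to -1.34.

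The levels of the unstable mutant were also set beside those of the other cultivars, a comparison chosen after the levels had been seen and given as a description. For NRT2.2 the log2 difference from Bengal was 0.14, with a 95% interval of -0.54 to 0.82, and that from Estrela A was -0.08 (-0.76 to 0.61). For NRT2.3 the difference from Bengal was 0.03 (-0.22 to 0.28). From Estrela A it was 0.32, with an interval of 0.07 to 0.56 that leaves out 0. Both genes lay below the median of all values in these 3 groups, where the share of background is unknown. For AMT1-2 the mutant lay 0.30 above Bengal (-0.39 to 0.99) and 0.27 above Estrela A (-0.43 to 0.96). For NAR2.2 it lay at -0.42 from Bengal (-1.16 to 0.32) and 0.31 above Estrela A (-0.44 to 1.05).

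In the unstable transgenic line NRT2.3 was lower than in the Nipponbare control and NAR2.2 was higher, against 3.1% of all probe sets called lower, 4.64% called higher and 7.74% called in all. Over genes these shares were 3.92%, 9.21% and 13.1%. NRT2.3 fell 2.51-fold, from 9.24 ± 0.11 to 7.92 ± 0.21 (log2 difference -1.33, SE 0.11, adjusted p = 9.4e-05), and 0.122% of probe sets fell by as much or more. NAR2.2 rose 2.37-fold, from 8.04 ± 0.62 to 9.29 ± 0.01 (log2 difference 1.25, SE 0.34, adjusted p = 0.0465). The differences of NRT2.3 and NAR2.2 thus had opposite signs in this line, but the NAR2.2 call depended on the arrays and settings of the fit. The NRT2.3 call was lost when only the 4 arrays of the comparison were fitted (adjusted p = 0.0711), and it held in all 14 fits that left out 1 array. The NAR2.2 call was lost in 9 of those 14 fits, with an adjusted p = 0.280 and a log2 difference of 0.81 without Nipponbare control replicate 1. Fits without either unstable transgenic array, either Bengal control array, either Estrela A control array or either stable mutant array also lost it, at adjusted p-values up to 0.179. With the replicate number as a block its adjusted p was 0.0521, and with only the 4 arrays of the comparison 0.156.

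NRT2.2 and AMT1-2 read lower in the unstable transgenic line too, without passing. For NRT2.2 the log2 difference was -0.90 (SE 0.31, adjusted p = 0.106), with a 95% interval of -1.58 to -0.21. The 2 pools of the line differed by more than that in NRT2.2, and leaving out the higher one, replicate 2, gave a difference of -1.47 at an adjusted p = 0.00515, while leaving out replicate 1 gave -0.32. For AMT1-2 the log2 difference was -0.72 (SE 0.32, adjusted p = 0.193), with an interval of -1.41 to -0.03.

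The unstable lines, both derived from Nipponbare, were compared directly. All 4 genes were lower in the unstable mutant than in the unstable transgenic line, against 13.7% of all probe sets and 27.9% of all genes called lower. NRT2.2 was 13-fold lower (SE 0.31 on the log2 scale, adjusted p = 6.53e-06), NAR2.2 8.25-fold lower (SE 0.34, adjusted p = 4.39e-05), NRT2.3 5.56-fold lower (SE 0.11, adjusted p = 7.22e-08) and AMT1-2 2.54-fold lower (SE 0.32, adjusted p = 0.00645). The AMT1-2 call was lost without unstable mutant replicate 1 (log2 difference -0.92, adjusted p = 0.0794).

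No member passed in either stable line in limma, and none had an unadjusted p under 0.05 there. The background in these comparisons was low, at 0.164% of all probe sets and 0.212% of genes called against Bengal and 0.131% and 0.19% against Estrela A. In the stable transgenic line the log2 differences from Bengal were -0.11 for NRT2.2, -0.19 for NRT2.3, -0.24 for NAR2.2 and 0.10 for AMT1-2. Their 95% intervals reached from -0.98 to 0.79 over the 4 genes, and for NRT2.3, the most precise, from -0.44 to 0.06. In the stable mutant the differences from Estrela A were -0.10, 0.14, -0.12 and -0.43 in the same order, with intervals between -1.12 and 0.62. Differences inside these intervals remain compatible with the data. NRT2.2 and NRT2.3 lay below the median of all values in both stable lines and their controls, where the share of background is unknown. A further fall of these genes could hardly show there, and the intervals do not cover that limit.

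**Figure D2:**
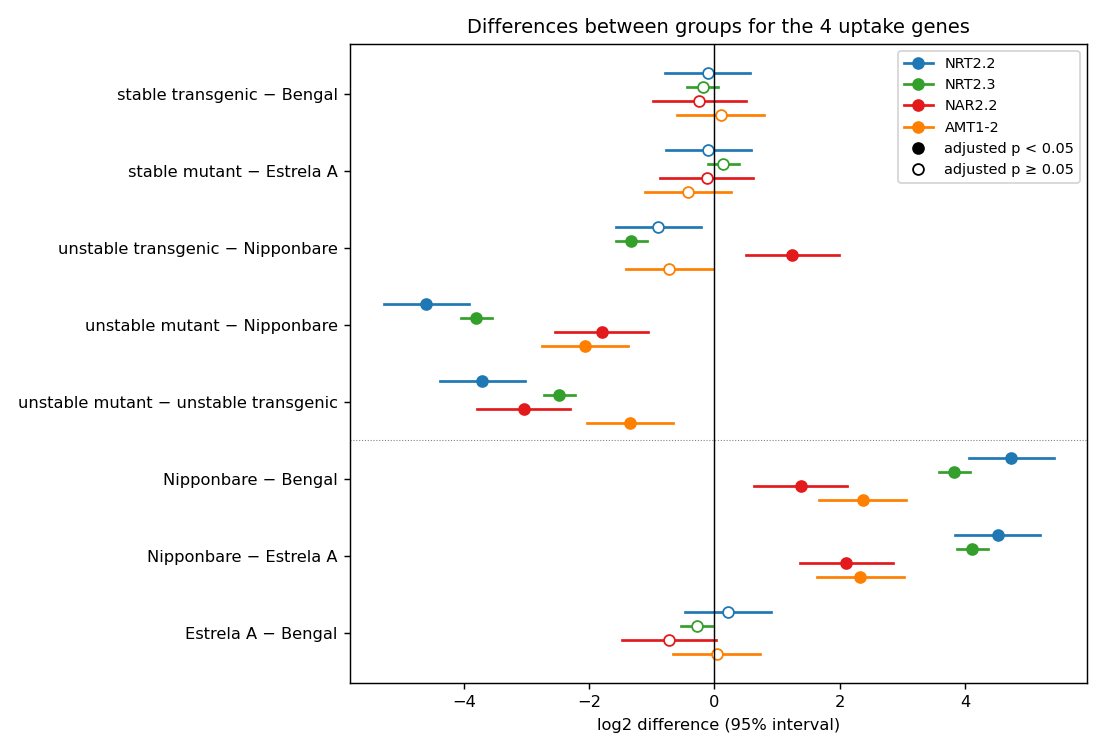
Log2 differences (x axis) of the 4 uptake genes in 8 comparisons (y axis, first group minus second group); lines are 95% intervals of the limma fit, and filled points have an adjusted p under 0.05. The unstable mutant differs from Nipponbare by -4.60 to -1.80, and in the unstable transgenic line NAR2.2 lies at 1.25 on the other side of 0 from NRT2.3 at -1.33.

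The unmodified cultivars differed from each other in the same genes. All 4 were higher in Nipponbare than in Bengal, against 9.67% of probe sets and 16.8% of genes called higher, and all 4 were higher in Nipponbare than in Estrela A, against 9.47% and 14.8%. NRT2.2 was 26.7-fold higher than in Bengal and 23-fold higher than in Estrela A (adjusted p = 6.21e-07 and 8e-07). NRT2.3 was 14.2-fold and 17.3-fold higher (adjusted p = 3.33e-10 and 1.4e-10), and AMT1-2 5.15-fold and 5.03-fold higher (adjusted p = 0.000204 and 0.000216). NAR2.2 was 2.60-fold and 4.30-fold higher (adjusted p = 0.0109 and 0.00075), and leaving out Nipponbare control replicate 2 or Bengal control replicate 1 ended its call against Bengal (adjusted p = 0.0834 and 0.0858). These comparisons share the Nipponbare control with those of the unstable lines, so their values are not independent of them. Between Estrela A and Bengal no member passed in limma, where 9.5% of probe sets and 14.5% of genes were called. NRT2.3 was there the sole member with an unadjusted p under 0.05, at a log2 difference of -0.29 (adjusted p = 0.164).

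To place the uptake genes among others of nitrogen use, 24 further genes of nitrogen transport, assimilation and their regulation were read in the same comparisons. In the unstable mutant 5 of the 24 were higher than in the Nipponbare control, 9 were lower and 10 did not pass. The list's median was -0.10 on the log2 scale, against 0.01 over all genes. Calls were thus made for 14 of the 24, and for 38% of all genes with a probe set, 19.1% higher and 18.9% lower.

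Among other ammonium transporters in the unstable mutant, AMT3-3 fell 2.73-fold, from 6.63 ± 0.08 to 5.18 ± 0.40 (SE 0.20, adjusted p = 0.000283). AMT3-2 fell 1.62-fold (adjusted p = 0.00935) and AMT2-2 1.31-fold (adjusted p = 0.0495). The AMT3-2 probe set also has the suffix for probes shared with other transcripts. AMT2-2 read 4.865 in the unstable mutant against 5.255 in the Nipponbare control, both below the median of all values. AMT1-1, which is expressed in roots and shoots, read 10.29 against 10.995 ± 0.25 and did not pass (log2 difference -0.71, adjusted p = 0.0575). AMT2-1, AMT2-3 and AMT3-1 did not pass either, with log2 differences between -0.17 and 0.25. DUR3, a high-affinity urea transporter gene, fell 3.33-fold, from 6.88 to 5.15 (SE 0.30, adjusted p = 0.00128). AMT3-3 and DUR3 also lay below the median of all values in the unstable mutant, so their folds depend on an unknown share of background.

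Of 9 measured genes for glutamine synthetase, glutamate synthase or glutamate dehydrogenase, 5 fell in the unstable mutant, 1 rose and 3 did not pass. Of all genes, 18.9% were called lower and 19.1% higher. GLN1-3, a glutamine synthetase gene that did not pass, read 5.87 against 5.74 (adjusted p = 0.628). GLT2, an NADH-dependent glutamate synthase gene, fell 5.46-fold in the unstable mutant, from 11.45 to 9 (SE 0.27, adjusted p = 7.27e-05). The cytosolic glutamine synthetase genes GLN1-2 and GLN1-1 fell 2.65-fold and 1.85-fold (adjusted p = 0.0021 and 0.00217), while the chloroplast form GLN2 read 12.95 against 12.93 (adjusted p = 0.918). The ferredoxin-dependent glutamate synthase gene FD-GOGAT did not pass either (12.87 against 13.03, adjusted p = 0.411). GDH1 and GDH3, for glutamate dehydrogenase, fell 2.12-fold and 1.51-fold and GDH2 rose 1.91-fold (adjusted p = 0.000457, 0.0207 and 0.00207). GDH3 read 3.895 in the unstable mutant against 4.49, both below the median of all values. NIA1, for nitrate reductase, rose 1.58-fold, from 11.43 to 12.09 (SE 0.16, adjusted p = 0.012), and also stood higher in Bengal (12.62) and Estrela A (12.72).

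Of 6 measured regulators, 3 rose in the unstable mutant and 3 did not pass, against 19.1% of all genes called higher and 38% called. CIPK23 and CIPK8, kinases known from Arabidopsis to act on nitrate sensing and response, rose 1.76-fold and 1.31-fold in the unstable mutant (adjusted p = 0.00139 and 0.0195). NIGT1, a nitrate-inducible repressor gene, rose 1.38-fold (adjusted p = 0.0456). The NIN-like genes NLP1, NLP2 and NLP3, of the family of nitrate-responsive transcription factors, did not pass, with log2 differences of 0.17, -0.04 and -0.03.

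In the unstable transgenic line 2 of the 24 genes were higher than in Nipponbare, 3 were lower and 19 did not pass, against 13.1% of all genes called, 9.21% higher and 3.92% lower. GLT2 fell 2.96-fold (adjusted p = 0.00601), NLP1 1.55-fold (adjusted p = 0.0211) and NIA1 1.53-fold (adjusted p = 0.0424). GDH2 rose 2.92-fold (adjusted p = 0.000443) and AMT3-2 1.75-fold (adjusted p = 0.0138). Of the ammonium transporters outside the 4 genes, only AMT3-2 of the 7 measured passed there. In limma no gene of the 24 passed in either stable line, where 1 of them in the transgenic line and 0 in the mutant had an unadjusted p under 0.05 and 0.212% and 0.19% of all genes were called.

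**Figure D3:**
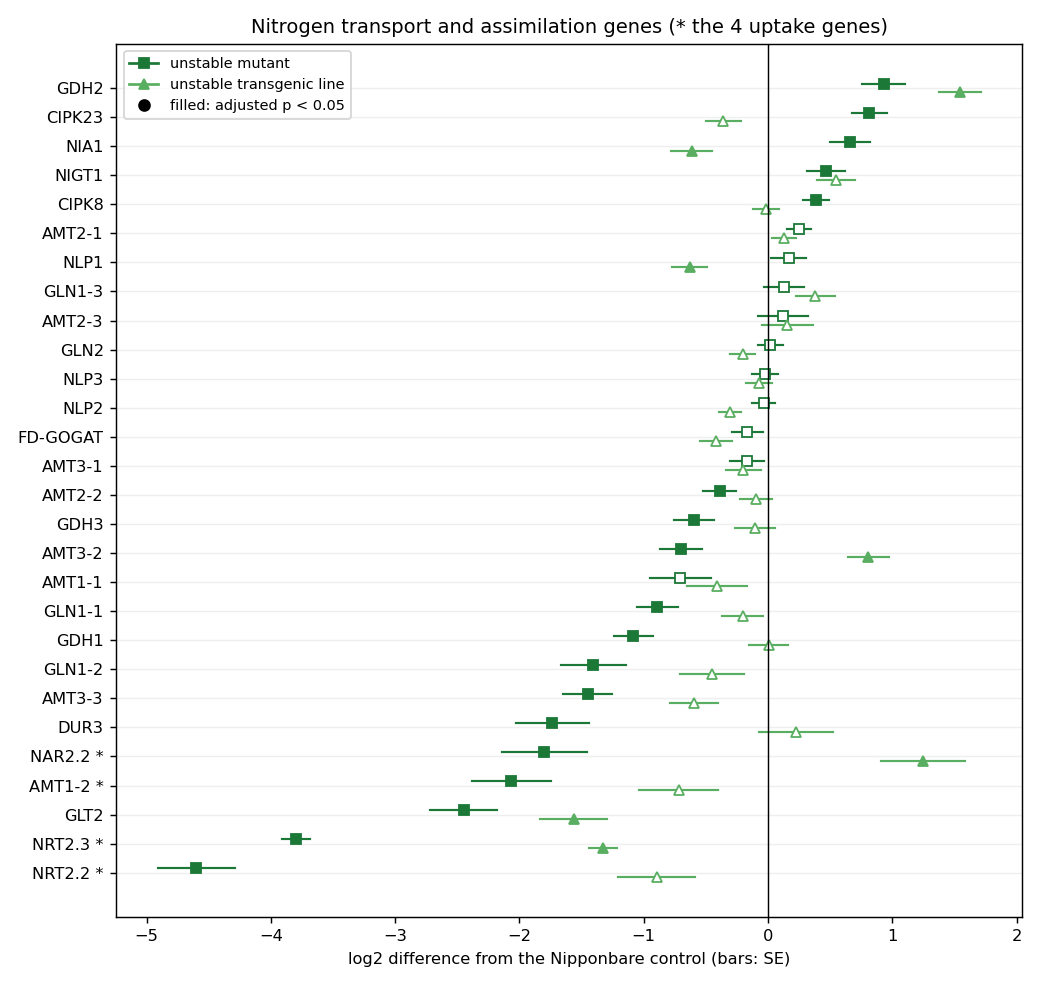
Log2 difference from the Nipponbare control (x axis, bars are SE) of the 4 uptake genes, marked with a star, and 24 other genes of nitrogen transport and assimilation (y axis) in the unstable mutant (squares) and the unstable transgenic line (triangles), which share that control; filled points have an adjusted p under 0.05. NRT2.2 and NRT2.3 are the lowest points in the mutant, at -4.60 and -3.80, and GLT2 at -2.45 comes next.

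Whole seedlings hold roots, shoots and the rest of the grain, and fewer cells of a tissue cannot be told apart from less RNA per cell in such samples. The mean of the root marker list moved with the 4 genes, while single markers did so unequally. The mean log2 level of 13 root marker genes lay between 8.71 and 8.93 on the 4 arrays of the Nipponbare control and the unstable transgenic line and between 7.54 and 7.77 on the 10 other arrays. Their summed linear signal lay between 32397 and 38833 on those 4 arrays and between 25217 and 31093 on the others. In the unstable mutant 8 of the 13 were lower than in Nipponbare and 5 did not pass. The median of their log2 differences was -0.86. Over all genes 18.9% were called lower, and the median was 0.01. IRT1, an iron uptake gene, fell 37.4-fold (adjusted p = 3.26e-08), more than any of the 4 uptake genes. The silicon transporter genes LSI1 and LSI2, with which rice roots take up silicon, fell 1.81-fold and 3.10-fold (adjusted p = 0.00296 and 0.000424). TIP2-2, an aquaporin gene at 13.86 against 13.75, did not pass (adjusted p = 0.389). QHB, SCR1, CSLD1 and PHT1-6 read between 4.58 and 5.53 in both groups, below the median of all values, and did not pass. NRAMP5, PIP2-5, YSL15, CASP1 and SHR1 fell by 1.66-fold to 5.68-fold. No root marker passed in limma in the unstable transgenic line, where 4 had an unadjusted p under 0.05. In Nipponbare against Bengal 7 of the 13 were called higher and 6 did not pass, against 16.8% of all genes called higher. The gap was widest for IRT1 (11.07 against 5.57), YSL15 (9.88 against 7.66) and NRAMP5 (10.6 against 8.46). QHB (4.995 against 5.03) and TIP2-2 (13.75 against 13.99) went the other way. The part of these markers in the differences of the uptake genes was not tested.

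Shoot and grain markers showed other orders. The mean of 10 shoot markers lay between 11.01 and 11.58 on all arrays and was lowest in Bengal. In the unstable mutant PORA, GLK1 and RCA were higher than in Nipponbare, LFNR1 and PORB were lower, and 5 of the 10 did not pass, against 38% of all genes called. The mean of 7 grain remnant markers was 6.22 and 7.21 in the Nipponbare control, 7.94 and 7.97 in the unstable transgenic line and 8.19 to 9.79 on the 10 other arrays. This list holds LEA3 and RAB21, which also respond to water deficit. In the unstable mutant 4 of these 7 were higher, against 19.1% of all genes, with LEA3 21.9-fold and RAB21 14.2-fold up (adjusted p = 3.7e-05 and 7.3e-05), AMY3D 2.21-fold and GLUA2 1.45-fold (adjusted p = 0.0437 and 0.0116). The part of these markers in the differences of the uptake genes was not tested either. The glutelin gene GLUA1 stayed between 3.57 and 3.74 in the 3 Nipponbare groups.

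**Figure D4:**
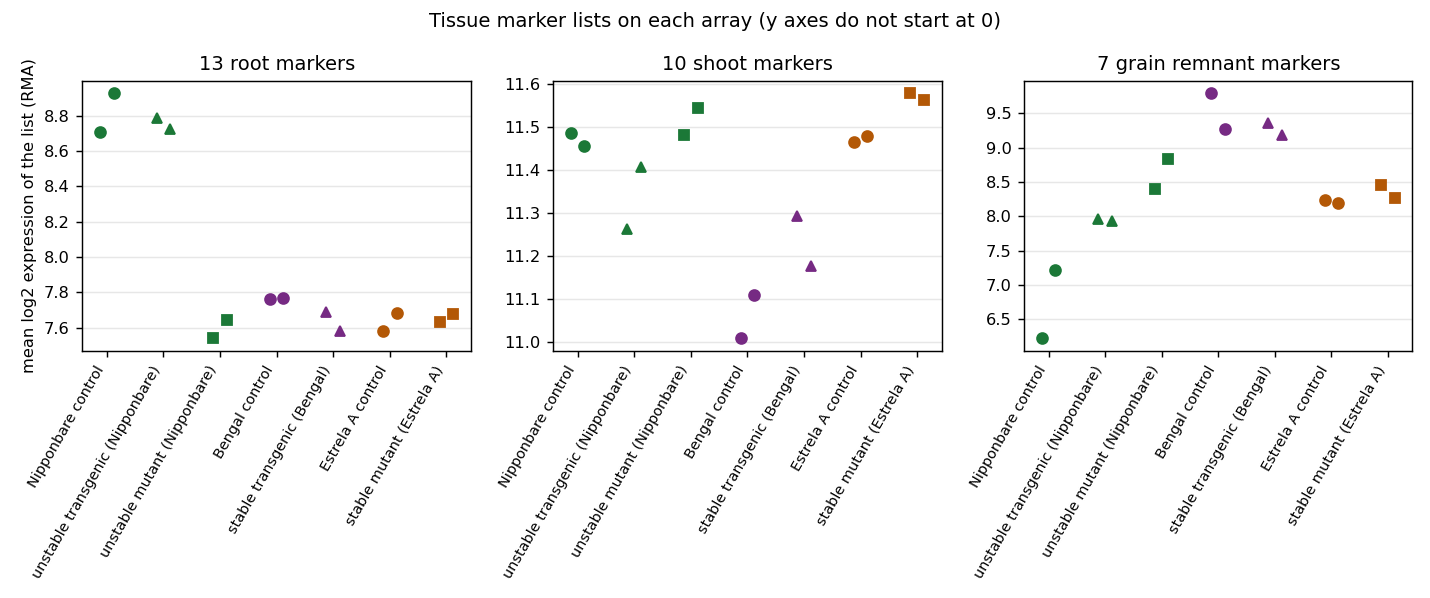
Mean log2 expression (y axes, RMA, not starting at 0) of 13 root, 10 shoot and 7 grain remnant marker genes on each array, by group (x axis); circles are controls, triangles transgenic lines and squares mutants, and colours are cultivars. The root list separates the same 4 arrays (8.71 to 8.93) from the other 10 (7.54 to 7.77) as the uptake genes do.

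The genes with patterns most like those of the members were sought among 803 named genes, by Pearson's r over the 7 group means. The group means of these 803 span at least 1 log2 unit, and the highest is at least the median of all values. For NRT2.2 these were AT4 (LOC4325160), an acyltransferase gene also called OsPMT, IRT1 and the endoglucanase gene GLU6, at r of 0.996, 0.996 and 0.994. Over the 14 arrays their r with NRT2.2 was 0.960, 0.981 and 0.979. For NRT2.3 they were AT4, NRT2.2 and ADF-11, which encodes an actin-depolymerizing factor, at 0.991, 0.990 and 0.983. In the Nipponbare control IRT1 read 11.07, against 10.56 in the unstable transgenic line. The unstable mutant had 5.84. Its level in the remaining groups was between 5.24 and 5.84.

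NAR2.2 was most like the germin-like gene GER6, the signalling peptide gene CLE202 and the transcription factor gene NAC2, at r of 0.992, 0.990 and 0.986, all of which were highest in the unstable transgenic line. GER6 read 10.82 there and 9.66 in the Nipponbare control, against 8.23 in the unstable mutant. AMT1-2 was most like HAK1, a high-affinity potassium transporter gene, at 0.986, followed by NRT2.3 (0.981) and ADF-11 (0.979). In the Nipponbare control HAK1 read 11.66, against 11.05 in the unstable transgenic line. The unstable mutant had 10.26. These likenesses rest on 7 points with 1 step between high and low groups, and they are given as descriptions.

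**Figure D5:**
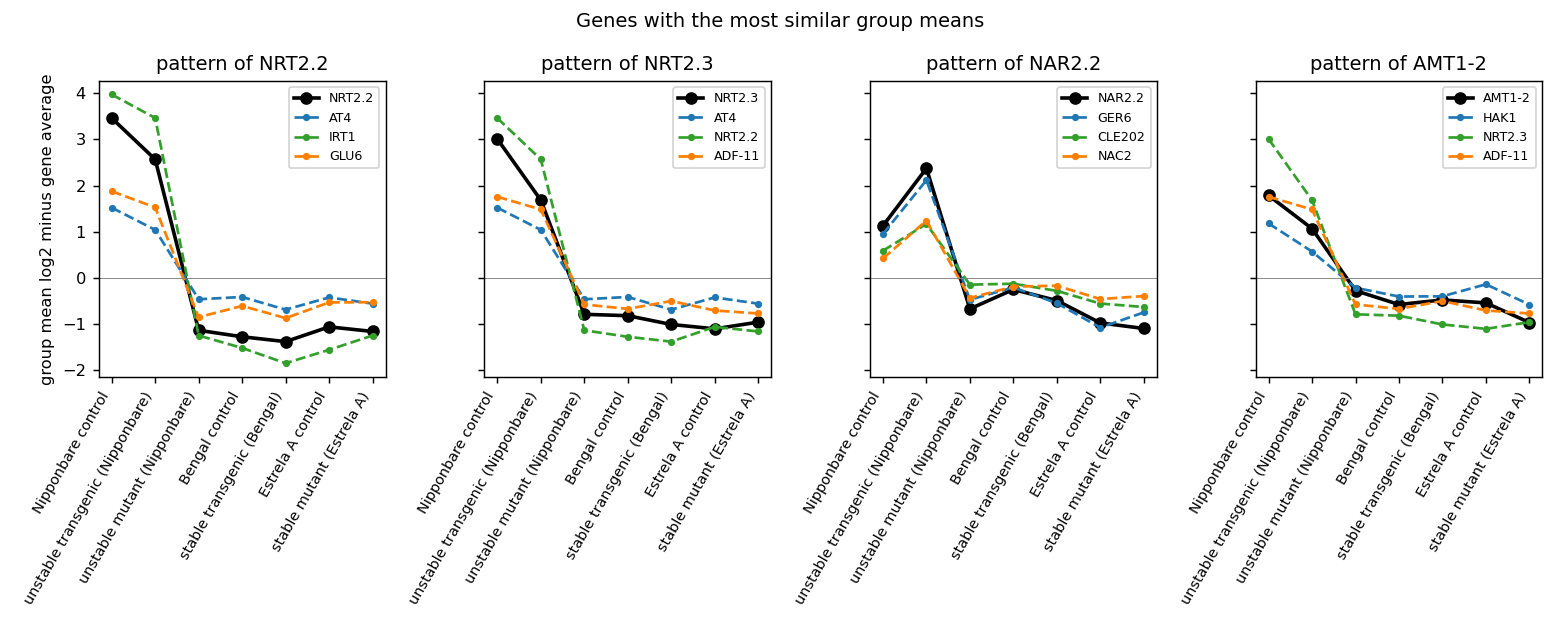
Group mean log2 expression minus the gene's own average over the 7 groups (y axis) for each of the 4 uptake genes (black) and the 3 genes with the highest r (dashed), by group (x axis). The curves for NRT2.2, NRT2.3 and AMT1-2 peak in the Nipponbare control and step down at the unstable mutant, and that of NAR2.2 peaks in the unstable transgenic line.

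Each line's effect against its own control was then compared with that of the other line of its kind, in the same fit. The effect of the unstable mutant was lower than that of the stable mutant for all 4 genes, against 3.87% of probe sets and 7.1% of genes called lower. The log2 gap was -4.5 for NRT2.2 (SE 0.44, adjusted p = 0.000101), -3.95 for NRT2.3 (SE 0.16, adjusted p = 1.1e-07), -1.68 for NAR2.2 (SE 0.48, adjusted p = 0.0468) and -1.64 for AMT1-2 (SE 0.45, adjusted p = 0.0381). In the Estrela A control NRT2.2 (5.085) and NRT2.3 (5.125) already lay below the median of all values (5.86), as did NRT2.3 in the Bengal control (5.41). A fall like that from Nipponbare could hardly show from such levels, so the gaps of these genes depend on the control levels. The lines compared also differ in cultivar and generation, which cannot be told apart from the modification. The calls of NAR2.2 and AMT1-2 were lost in 10 and 9 of the 14 fits that left out 1 array, at adjusted p-values up to 0.179 and 0.149 (both without unstable mutant replicate 1). For NAR2.2 these were the fits without Nipponbare control replicate 2, unstable mutant replicate 1 or any array of the unstable transgenic line, the Bengal control, the Estrela A control or the stable mutant. For AMT1-2 they were those without unstable mutant replicate 1 or any array of the Nipponbare, Bengal or Estrela A controls or the stable mutant. With the replicate number as a block the adjusted p-values were 0.0519 for NAR2.2 and 0.053 for AMT1-2. For the transgenic lines the effect differed for NRT2.3 alone (log2 gap -1.14, SE 0.16, adjusted p = 0.00599), against 1.95% of probe sets and 3.75% of genes called, and NRT2.2, NAR2.2 and AMT1-2 did not pass (adjusted p = 0.445, 0.156 and 0.432). The NRT2.2 gap passed without unstable transgenic replicate 2 (-1.37, adjusted p = 0.0461).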

How the data were processed

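Expression was measured on Affymetrix GeneChip Rice Genome Arrays in 14 RNA pools. The deposited values are log2 expression, which the authors made from CEL files by RMA (Partek Genomics Suite; source: the series' design text) in steps of background correction, normalization across all chips, log2 and median polish. The sources used here give no program version. All 14 columns were used as deposited. In each group the array with a number in its title was called replicate 1.

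The 57194 probe sets left after 187 controls were fitted in limma 3.58.1 (R 4.3.3) with 1 mean per group, 7 residual and 4.57 prior degrees of freedom. Contrasts were two-sided and called where p, adjusted over all probe sets by Benjamini-Hochberg, was under 0.05. The step was tested on simulated data. Array number limits the precision. Gene names came from a reference table (assembly ASM3414082v1) through the array annotation. One gene was found for 22436 probe sets, several for 95 and none for 34663. Each gene is represented by its brightest probe set. No coordinates or sequences are printed.

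The members, lists, tests and alternatives were chosen with earlier results of these data known. List genes called in a line comparison are named, and the 3 most alike genes per member. From the nitrogen list 3 genes matched by an unrelated synonym were dropped by name. Alternatives covered variance moderation, arrays fitted, dim and shared probe sets, cyclic loess, the replicate number as a block, and leaving out every array once.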

Additional observations from a re-analysis of the deposited data

Results flagged for a closer look

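The effects of the 2 unstable lines, both against the Nipponbare control, differed by a limma test of the difference itself. The log2 difference between the unstable mutant and the unstable transgenic line was -3.71 for NRT2.2, -2.48 for NRT2.3, -3.05 for NAR2.2 and -1.35 for AMT1-2. The effects of the unstable and the stable mutant, each against its own control, differed by -4.5 for NRT2.2, -3.95 for NRT2.3, -1.68 for NAR2.2 and -1.64 for AMT1-2. Those of the unstable and the stable transgenic line differed by -1.14 for NRT2.3. NRT2.2 and NRT2.3 lay below the median of all values in the controls of the stable lines, where a fall could hardly show. Between the mutant effects the NAR2.2 and AMT1-2 calls were lost in limma without variance moderation (adjusted p = 0.152 and 0.135). The NRT2.3 call between the transgenic effects was lost when only the arrays compared were fitted (adjusted p = 0.0509). Groups of 2 arrays were too small for a test of single arrays that stand apart.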

How the results depend on the processing

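The differences of NRT2.2, NRT2.3, NAR2.2 and AMT1-2 between the unstable mutant and the Nipponbare control kept direction and call under every alternative that gave a value, each array left out included. Without variance moderation, calls were lost for NAR2.2 in the unstable transgenic line (1.25, adjusted p = 0.152), in Nipponbare against Bengal (1.38, 0.0626) and between the mutant effects (-1.68, 0.152), and for AMT1-2 between the mutant effects (-1.64, 0.135). A trended robust prior lost NAR2.2 in the unstable transgenic line (1.25, 0.0707) and between the mutant effects (-1.68, 0.0723) and AMT1-2 between them (-1.64, 0.0546). With the replicate number as a block the same 3 calls were lost (1.25, 0.0521; -1.68, 0.0519; -1.64, 0.053) and no other call of the 4 genes changed. Only the arrays compared lost NRT2.3 (-1.33, 0.0711) and NAR2.2 (1.25, 0.156) in the unstable transgenic line, NRT2.3 between the transgenic effects (-1.14, 0.0509) and NAR2.2 between the mutant effects (-1.68, 0.0622), and called NAR2.2 between Estrela A and Bengal (-0.73, 0.0239). Cyclic loess turned the sign of the uncalled AMT1-2 difference between Estrela A and Bengal (-0.0059). The cause of these changes was not tested.

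With each array left out in turn, the log2 difference ran from 0.81 to 1.69 for NAR2.2 and from -1.47 to -0.32 for NRT2.2 in the unstable transgenic line. It ran from -1.78 to -0.92 for AMT1-2 between the unstable lines and from 0.94 to 1.82 for NAR2.2 between Nipponbare and Bengal. Between the mutant effects it ran from -2.14 to -1.22 for NAR2.2 and from -2.07 to -1.21 for AMT1-2, and between the transgenic effects from -1.37 to -0.22 for NRT2.2. Uncalled differences changed sign for NRT2.2 (-0.24 to 0.03), NAR2.2 (-0.67 to 0.19) and AMT1-2 (-0.44 to 0.64) in the stable transgenic line, NRT2.2 in the stable mutant (-0.255 to 0.055) and AMT1-2 between Estrela A and Bengal (-0.085 to 0.155).

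Without moderation 24 probe sets were called in the stable transgenic line, 2318 in the unstable transgenic line and 199 between the transgenic effects, against 94, 4425 and 1116. The trended prior called 152 in the stable transgenic line. Only the arrays compared gave 28, 35, 7862 and 209 in the stable transgenic line, the unstable transgenic line, the unstable mutant (13085 otherwise) and between the transgenic effects. With each array left out the counts ran from 51 to 100 in the stable transgenic line, 47 to 78 in the stable mutant, 1349 to 5613 in the unstable transgenic line, 8179 to 13209 in the unstable mutant, 8729 to 14099 between Nipponbare and Estrela A, 3188 to 5691 between Estrela A and Bengal, 324 to 2203 between the transgenic effects and 2920 to 7436 between the mutant effects.

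Nothing in the labels says whether equal replicate numbers pair arrays across groups. The deviations of replicate 1 from group means correlated between -0.208 and 0.115 over 21 pairs of groups. Such correlations cannot exclude pairing, so it remains unknown. Crossed numbers for the stable transgenic line, chosen after seeing the data, called 90 probe sets there. Each gene has 1 probe set, so another probe set gave no value, and leaving out shared probe sets gave none for NRT2.2 and NRT2.3. Signal over background was not analysed here.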
